A study of Mus musculus with 7 samples.

Results

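Expression of 9 genes of the megakaryocyte and platelet lineage was followed in T-cells of mice that carry an ORP4L knock-in and of their wild-type littermates. They were chosen by name, as the rows for Pf4, Ppbp, Itga2b, Gp9, Gp1ba, Gp1bb, Itgb3, Vwf and Treml1, and they make up 9 of the 25033 genes listed. The series holds RNA sequencing libraries of primary T-cells from 4 ORP4L knock-in (KI) mice and 3 wild-type (WT) littermates, 1 library per mouse, and asks what ORP4L, a lipid-binding protein of the oxysterol-binding family, changes in T-cell gene expression. All 7 mice were C57BL/6J and 15 months old. The KI mice carry human ORP4L in the Rosa26 locus, with a CAG promoter, a loxP-flanked stop cassette, a 3x Flag tag and IRES-EGFP, and were crossed to a Cre transgene under the T-cell promoter Lck. They were sampled when moribund, so genotype and disease cannot be told apart. Whether the WT mice carried the Cre transgene or the unrecombined allele is not given in the sources used here. The methods take mouse T-cells from blood mononuclear cells or from digested spleen, lyse red cells, and isolate CD4+ T-cells with a naive CD4+ kit. Which source and which of these steps each library had is not given, so a difference in either was not tested.

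Platelets are shed by megakaryocytes, which in mice live in bone marrow and spleen, and they keep part of the megakaryocyte mRNA although they have no nucleus. The GPIb-IX-V complex, which holds the products of Gp1ba, Gp1bb and Gp9, binds von Willebrand factor, the product of Vwf, and tethers platelets to a damaged vessel wall. Integrin alphaIIb (Itga2b) and beta3 (Itgb3) form the fibrinogen receptor, while Pf4, Ppbp and Treml1 encode alpha-granule proteins: 2 chemokines and a receptor of the TREM family. None of these genes defines a T-cell, and in a bulk sample fewer cells or platelets of a type and less RNA per cell cannot be told apart.

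Upstream sequence is printed here as background only. A pattern over the libraries, described below, was shared by 4 of the 9 members, which were picked after their values were seen. Whether upstream sequence plays a part in that pattern was not tested. For these 4, Pf4, Itga2b, Gp9 and Treml1, and for Gp1bb, which departed from it, the 250 bases before the start that RefSeq gives on GRCm38.p6 are printed 5′ to 3′ on the gene's strand. Capitals mark GGAAG or its reverse complement CTTCC, the core letters bound by ETS factors such as Fli1, and the strings AGATAA and also AGATAG, and with a first T the strings TGATAA and also TGATAG, on either strand, the letters bound by GATA factors such as Gata1. The windows lie at chr5:90772185-90772434 (plus strand, Pf4), chr11:102469884-102470133 (minus, Itga2b), chr6:87777820-87778069 (plus, Gp9), chr17:48359666-48359915 (plus, Treml1) and chr16:18622404-18622653 (minus, Gp1bb). The Gp9 window lies inside the gene span given further on, which starts upstream of it. The Gp1bb window lies inside Sept5, another gene on the same strand, whose span is also given further on. In the GENCODE annotation Itga2b reaches base 102470122, so most of the Itga2b window lies inside the gene there.
Pf4: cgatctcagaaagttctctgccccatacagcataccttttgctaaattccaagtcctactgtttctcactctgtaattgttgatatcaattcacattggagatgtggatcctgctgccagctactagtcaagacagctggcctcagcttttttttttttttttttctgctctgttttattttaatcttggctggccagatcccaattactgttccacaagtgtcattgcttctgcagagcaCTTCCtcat
Itga2b: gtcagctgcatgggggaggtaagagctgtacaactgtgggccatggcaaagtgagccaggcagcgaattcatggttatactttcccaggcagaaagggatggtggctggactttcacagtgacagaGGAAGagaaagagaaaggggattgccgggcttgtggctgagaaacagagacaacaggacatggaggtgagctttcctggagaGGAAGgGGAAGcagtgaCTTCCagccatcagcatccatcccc
Gp9: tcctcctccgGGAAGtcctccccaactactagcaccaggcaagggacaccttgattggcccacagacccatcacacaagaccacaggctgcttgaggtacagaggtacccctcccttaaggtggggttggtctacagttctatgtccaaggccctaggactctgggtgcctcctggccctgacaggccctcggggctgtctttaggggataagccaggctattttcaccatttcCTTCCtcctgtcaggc
Treml1: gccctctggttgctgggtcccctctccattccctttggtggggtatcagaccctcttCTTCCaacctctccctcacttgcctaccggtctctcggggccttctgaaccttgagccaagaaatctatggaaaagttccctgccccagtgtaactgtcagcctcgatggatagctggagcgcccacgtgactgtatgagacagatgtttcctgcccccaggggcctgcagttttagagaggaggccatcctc
Gp1bb: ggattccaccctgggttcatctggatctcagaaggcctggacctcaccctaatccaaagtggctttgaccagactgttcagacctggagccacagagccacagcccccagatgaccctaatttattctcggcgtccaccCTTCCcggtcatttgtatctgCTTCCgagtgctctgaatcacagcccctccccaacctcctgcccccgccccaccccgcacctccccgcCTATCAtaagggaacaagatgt
RefSeq windows were matched for 7 of the 9 members. GGAAG was found in 7 of those 7 windows and in 64.1% of the 32851 windows of this length. One of the GATA strings was found in 2 of the 7, in Gp1bb and Gp1ba, and in 26.5% of all windows. The 4 members of the shared pattern held none of the GATA strings in these windows. Such matches describe letters and not bound sites.

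All 9 members were read in every library, with 63 to 2294 counts each, and all 9 passed the filter on low counts. Neither call rule picked a member. The first rule asked for an unadjusted p under 0.01 with a log2 fold change above 1 in size, and it called 0 of 9 members beside 4.68% of the 13462 genes tested, 2.38% higher and 2.3% lower. The second asked for a Benjamini-Hochberg adjusted p under 0.05 in edgeR's quasi-likelihood test, and it called 0 of 9 beside 0.0223% of all genes. At an unadjusted p under 0.05 the same test passed 1 member, Gp1bb, beside 13.7% of all genes. DESeq2's Wald test and edgeR's exact and likelihood ratio tests each called 1 member by the first rule, again Gp1bb, and 0 by the second. Over all genes those 3 tests called 6.35%, 6.33% and 6.46% by the first rule and 5.82%, 5.07% and 5.24% by the second. The fold changes were positive for 5 members and negative for 4, with a median of 0.11 on the log2 scale beside 0.013 over all genes tested.

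**Figure D1:**
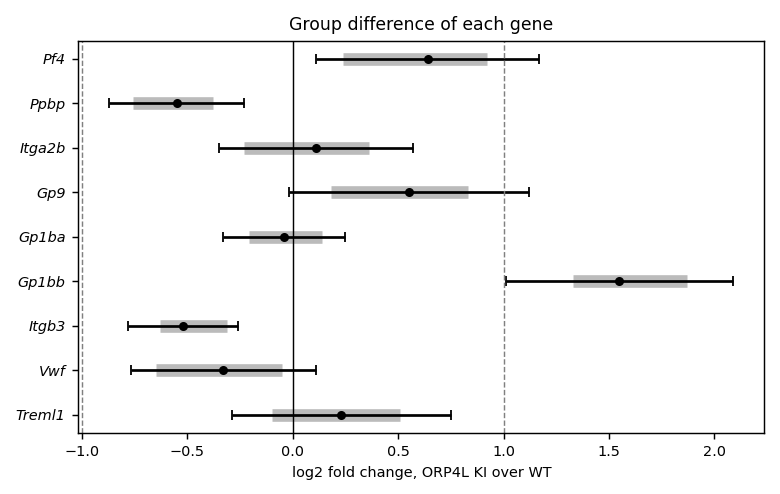
Log2 fold change of each gene, ORP4L KI over WT, from edgeR's quasi-likelihood fit on 4 and 3 libraries. Points are fold changes, thin bars are 1 standard error, grey bars span the fold changes when each library is left out in turn, and dashed lines mark a log2 fold change of 1 in size. Gp1bb at 1.55 lies past the line, and Itga2b, Gp1ba and Treml1 have grey bars on both sides of 0.

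The 2 chemokines lie next to each other. Ppbp, whose product is processed to the neutrophil attractant NAP-2, spans chr5:90768518-90770063, and Pf4, encoding platelet factor 4, spans chr5:90772435-90773383 on the same strand of GRCm38, with 2371 bases between them. Levels below are in CPM, the count of a gene scaled to 1000000 counts per library, with each total first adjusted for composition by the TMM factor of edgeR. Pf4 stood at 38.0, 35.3 and 25.4 CPM in WT replicates 1 to 3 and at 23.5, 17.3, 76.0 and 88.5 CPM in KI replicates 1 to 4. KI replicates 3 and 4 were thus above every WT library and KI replicates 1 and 2 below every one. The means were 32.9 ± 6.66 CPM (SD, n = 3) in WT and 51.3 ± 36.2 CPM (SD, n = 4) in KI, a log2 fold change of 0.64 with a standard error of 0.53 and an adjusted p of 0.69 in edgeR's quasi-likelihood test. The difference was smaller than the spread among KI libraries.

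Ppbp stood at 59.3, 47.7 and 69.5 CPM in WT and at 29.0, 23.3, 56.7 and 52.1 CPM in KI. Its KI replicates 3 and 4 fell within the WT range instead of above it, and replicates 1 and 2 were again below every WT library. The log2 fold change was -0.55 with a standard error of 0.32 and an adjusted p of 0.523 by edgeR's quasi-likelihood test. In the authors' RPKM, which divides reads by transcript length and library total, the ratio of Pf4 to Ppbp was 1.18, 1.36 and 0.671 in WT and 1.49, 1.36, 2.47 and 3.12 in KI. The 2 libraries with the highest ratio were KI replicates 3 and 4.

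Itga2b and Itgb3, the chains of 1 integrin, had different profiles. Itga2b (chr11:102453297-102469883, minus strand) had the most reads of the members, with 9702 over the 7 libraries. Its level was 89.1, 75.1 and 79.9 CPM in WT and 38.1, 41.2, 130 and 143 CPM in KI, so KI replicates 1 and 2 were below and replicates 3 and 4 above all WT libraries. Its group means were close, 81.3 ± 7.11 CPM (SD, n = 3) and 88.0 ± 56.1 CPM (SD, n = 4), with a log2 fold change of 0.11, a standard error of 0.46 and an adjusted p of 0.952 in edgeR's quasi-likelihood test. The sign of this small difference turned to -0.14 without KI replicate 3 and to -0.23 without KI replicate 4.

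Itgb3 (chr11:104608000-104670476, plus strand) stood at 54.9, 54.7 and 80.4 CPM in WT and at 46.4, 27.2, 52.6 and 50.0 CPM in KI. All 4 KI libraries were below all 3 WT libraries, under TMM, total counts, DESeq2 size factors, upper-quartile scaling and RPKM alike. It was the 1 member of 9 whose groups did not overlap, beside 13.8% of all genes tested. Of all genes tested, 6.43% had every KI library above and 7.38% every KI library below WT. The log2 fold change was -0.52 with a standard error of 0.26, an unadjusted p of 0.0762 and an adjusted p of 0.435 in edgeR's quasi-likelihood test. The two-sided exact permutation test on mean CPM, with 35 ways to place the labels, gave 0.0571, the smallest p this design allows, so no member could reach 0.05 by it. The RPKM ratio of Itga2b to Itgb3 was 2.73, 2.31 and 1.67 in WT and 1.38, 2.55, 4.16 and 4.8 in KI, again highest in KI replicates 3 and 4.

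**Figure D2:**
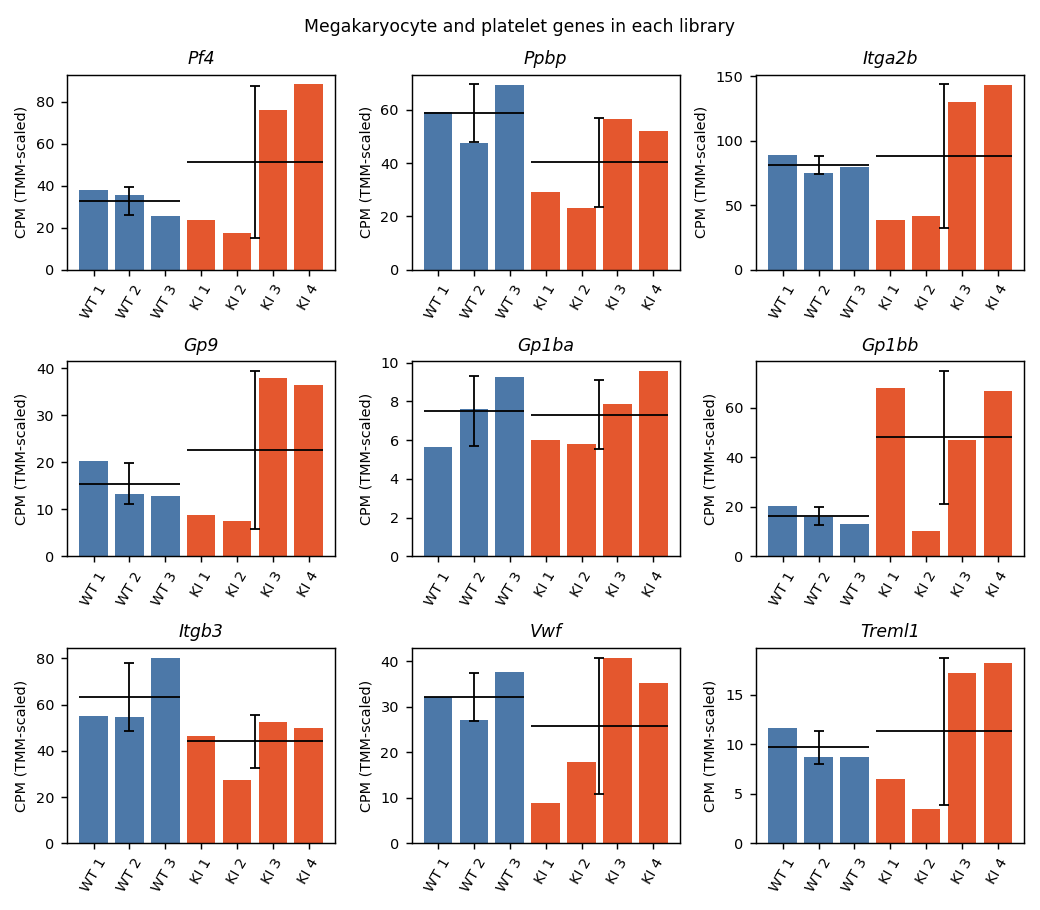
TMM-scaled CPM of each gene in the 3 WT (blue) and 4 ORP4L KI (red) libraries, with each axis starting at 0. Bars are libraries, horizontal lines are group means and vertical lines are 1 SD either side of the mean. Pf4, Itga2b, Gp9 and Treml1 have 2 KI bars above and 2 below all WT bars, and all 4 Itgb3 KI bars are below the WT bars.

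Gp9, Gp1ba and Gp1bb encode chains of the same receptor complex and gave 3 different profiles. Gp9 (chr6:87776131-87779786, plus strand) stood at 20.4, 13.2 and 12.8 CPM in WT and at 8.77, 7.56, 38.0 and 36.4 CPM in KI. Like Pf4 it was below all WT libraries in KI replicates 1 and 2 and above them in replicates 3 and 4, with a log2 fold change of 0.55, a standard error of 0.57 and an adjusted p of 0.77 by edgeR's quasi-likelihood test. Gp1ba (chr11:70639102-70643986, plus strand), which carries the site that binds von Willebrand factor, had the smallest spread among KI libraries of the 9 members. It stood at 5.65, 7.61 and 9.27 CPM in WT and at 6.03, 5.81, 7.87 and 9.58 CPM in KI, largely overlapping, with a log2 fold change of -0.04 and a standard error of 0.29.

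Gp1bb had the largest fold change of the members. Its level was 20.3, 15.8 and 13.1 CPM in WT and 67.8, 10.2, 47.0 and 66.8 CPM in KI, so 3 KI libraries were above every WT library and KI replicate 2 was below. The means were 16.4 ± 3.66 CPM (SD, n = 3) and 48.0 ± 26.9 CPM (SD, n = 4). The log2 fold change of 1.55 had a standard error of 0.54, an unadjusted p of 0.0181 and an adjusted p of 0.232 in edgeR's quasi-likelihood test. Without KI replicate 2 the log2 fold change was 1.87 and the adjusted p in the same test was 0.0123. Without that library the calls over all genes also rose, to 6.03% by the first rule and from 3 to 342 genes by the second.

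Gp1bb also shares its place in the genome with another gene. It spans chr16:18620319-18622403 on the minus strand. Sept5, which encodes a septin that forms filaments in platelets and neurons, spans chr16:18621811-18629938 on the same strand, sharing 593 bases in RefSeq. In GENCODE Sept5 spans chr16:18620502-18629954, so by that annotation most of Gp1bb lies inside Sept5. The authors used a length of 2127 bases for Sept5, against 3678 for its longest GENCODE transcript. Reads from the shared stretch cannot be assigned by strand, and how the authors divided them is not given in the sources used here. Sept5, which is no member, stood at 9.38, 5.72 and 3.86 CPM in WT and at 135, 25.6, 52.1 and 90.8 CPM in KI, and it was called higher by the first rule, with a log2 fold change of 3.58, a standard error of 0.59 and an adjusted p of 0.0601 in edgeR's quasi-likelihood test. The RPKM ratio of Sept5 to Gp1bb was 0.257 to 0.401 in WT and 1.73, 2.17, 0.963 and 1.18 in KI. The RPKM ratio of Gp1bb to Gp9 was 0.473 to 0.57 in WT and 3.67, 0.643, 0.588 and 0.872 in KI, with KI replicate 1 far from the rest. The part that Sept5 reads play in the Gp1bb count was not tested.

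**Figure D3:**
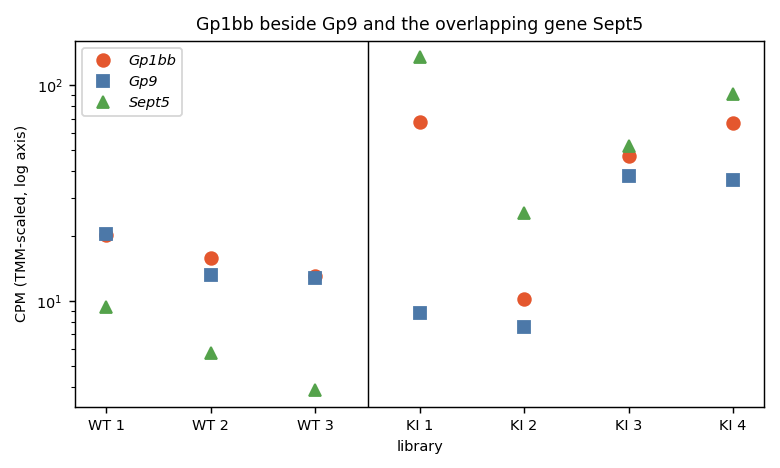
TMM-scaled CPM, on a log axis, of Gp1bb (circles), Gp9 (squares) and Sept5 (triangles) in each library. Gp1bb and Gp9 lie close together in WT, KI replicate 1 has Gp1bb at 67.8 and Gp9 at 8.77 CPM, and every KI value of Sept5 is above every WT value.

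Vwf (chr6:125552948-125686679, plus strand), which endothelial cells also express, stood at 32.2, 27.0 and 37.6 CPM in WT and at 8.89, 17.8, 40.8 and 35.3 CPM in KI. KI replicate 3 was above all WT libraries, replicate 4 within their range and replicates 1 and 2 below, with a log2 fold change of -0.33, a standard error of 0.44 and an adjusted p of 0.833 in edgeR's quasi-likelihood test. Treml1 (chr17:48359916-48367176, plus strand), encoding a receptor that reaches the platelet surface on activation, stood at 11.6, 8.74 and 8.71 CPM in WT and at 6.51, 3.45, 17.2 and 18.2 CPM in KI. It showed the same division as Pf4, with a log2 fold change of 0.23, a standard error of 0.52 and an adjusted p of 0.91.

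For Pf4, Itga2b, Gp9, Gp1ba, Vwf and Treml1 the difference between the group means in CPM was smaller than the SD among KI libraries. For Ppbp, Gp1bb and Itgb3 it was larger. The highest KI library was 5.13 times the lowest for Pf4, 3.74 times for Itga2b, 5.02 times for Gp9, 5.26 times for Treml1 and 6.62 times for Gp1bb, against 1.65 times for Gp1ba and 1.94 times for Itgb3. The median of this ratio over the 9 members was 4.59 in KI and 1.47 in WT. Over all genes with a mean log2 CPM of at least 0 the medians were 1.81 and 1.51. These figures compare 4 libraries with 3 and carry no test. In 8 of the 9 members KI replicates 3 and 4 were the 2 highest KI libraries, with Gp1bb as the exception. The share of all genes with that order was not counted. KI replicates 3 and 4 were also the most alike KI pair across genes in general. A chi-square of counts between 2 libraries, per degree of freedom, was 30.9 for that pair and 84.9 to 389 for the other KI pairs. A pattern of exactly 2 KI libraries above every WT library and 2 below was defined after the values were seen and is given as a description. It held for 4 of 9 members, Pf4, Itga2b, Gp9 and Treml1, beside 1.34% of all genes tested, and for the same 4 under each of the other scalings and in RPKM. Of the 181 genes with it in the whole table, KI replicates 3 and 4 were the high pair in 49.

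The 9 members together took 0.0359%, 0.0285% and 0.0371% of the counts in WT and 0.0196%, 0.0168%, 0.0465% and 0.046% in KI. KI replicates 1 and 2 were below all WT libraries and replicates 3 and 4 above, also without Gp1bb, where WT spanned 0.0269% to 0.0357% and KI stood at 0.014%, 0.0156%, 0.0418% and 0.0398%. On the RPKM scale, which allows genes to be compared, Pf4 and Ppbp led in WT with 59.1 ± 11.2 and 58.0 ± 13.4 (SD, n = 3) and did not differ beyond their spread. Itga2b at 25.1 ± 3.13 followed without overlap, then Gp9 at 18.7 ± 5.55, Itgb3 at 11.7 ± 3.18, Gp1bb at 9.41 ± 2.18 and Treml1 at 8.33 ± 1.63, each overlapping the one before it. Vwf at 3.89 ± 0.819 and Gp1ba at 1.71 ± 0.445 were last and separate from their neighbours. The authors used a length of 4660 bases for Gp1ba, against 2710 for its longest GENCODE transcript, so its RPKM depends on that choice.

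In KI the RPKM order was Pf4 at 83.1 ± 58.4 (SD, n = 4), Ppbp at 35.6 ± 15.0, Gp9 at 24.7 ± 18.5, Itga2b at 24.5 ± 15.5, Gp1bb at 23.8 ± 12.3, Treml1 at 8.71 ± 5.8, Itgb3 at 7.21 ± 1.7, Vwf at 2.83 ± 1.66 and Gp1ba at 1.5 ± 0.358. Itgb3 and Vwf were the 1 neighbouring pair whose ranges did not overlap. Pf4 made up 24% to 35.1% of the summed member RPKM in WT and 28.5%, 33.4%, 40.7% and 43.3% in KI. Gp1bb made up 3.94% to 5.41% in WT and 26.2%, 6.31%, 8.01% and 10.4% in KI, so its share was highest in KI replicate 1.

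Other genes of the lineage were read from 5 lists of receptors, granule proteins, cytoskeletal and signalling proteins, eicosanoid enzymes and transcription factors, of which 70 genes were listed in the files and 69 were tested. By the first rule 4 rose and 3 fell, or 10.1% beside 4.68% of all genes. The median log2 fold change of the 69 was -0.03. Leaving out single libraries gave 3 to 9 calls, with 3 without WT replicate 2 or KI replicate 4 and 4 without WT replicate 1, WT replicate 3 or KI replicate 1. None passed the adjusted threshold in edgeR's quasi-likelihood test, 15 of 69 had an unadjusted p under 0.05 beside 13.7% of all genes, and DESeq2's Wald test passed 9 at an adjusted p under 0.05 beside 5.82% of all genes.

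The 4 that rose were Ptgs1, the cyclooxygenase of platelets, Serpine2, Selp, encoding the alpha-granule adhesion protein P-selectin, and P2rx1, an ATP-gated channel. Ptgs1 stood at 9.81, 8.99 and 7.52 CPM in WT and at 78.3, 14.6, 23.1 and 38.1 CPM in KI, with a log2 fold change of 2.13, a standard error of 0.52 and an adjusted p of 0.107 in edgeR's quasi-likelihood test. Serpine2, Selp and P2rx1 had log2 fold changes of 1.64, 1.41 and 1.26. Their highest library was KI replicate 1, or KI replicate 4 for Selp, and in none of the 4 did KI replicate 1 fall below WT as it did for Pf4. Ptgs1, Serpine2 and P2rx1, but not Selp, ranked the KI libraries in the same order as the granulocyte share given below. The member Gp1bb and its neighbour Sept5 had that order too. The part of granulocytes in these calls and in the Gp1bb and Sept5 levels was not tested. The call of Ptgs1 was lost without WT replicate 3 and that of Selp without WT replicate 1 or KI replicate 4. That of Serpine2 was lost without any 1 WT library or KI replicate 1 or 4, and that of P2rx1 without any 1 library other than KI replicate 2.

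The 3 that fell were Itga2, the collagen-binding integrin chain, at -1.48, Cd36, a scavenger receptor, at -1.28, and Cbfa2t3, a corepressor, at -1.20 on the log2 scale. Itga2 stood at 14.5, 13 and 26.4 CPM in WT and at 3.41, 7.23, 9.02 and 6.10 CPM in KI without overlap. Cbfa2t3 stood at 67.7, 92.4 and 60.3 CPM in WT and at 32.6, 36.2, 41.0 and 18.3 CPM in KI, also without overlap. Cd36 lost its call without WT replicate 1, WT replicate 2, or KI replicate 1, 2 or 4, Itga2 without WT replicate 3, and Cbfa2t3 without WT replicate 2. Cd36 and Selp are also expressed by endothelial and other cells.

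Of the 16 receptors tested, 1 rose and 2 fell. Of the 18 granule genes 2 rose, of the 4 eicosanoid enzymes 1 rose, of the 13 transcription factors 1 fell, and of the 18 cytoskeletal and signalling genes none passed. The most abundant of each list by RPKM included Cd9, a tetraspanin, with a log2 fold change of 0.58, Srgn, the granule proteoglycan serglycin, with 0.16, and Thbs1, thrombospondin, with -0.89, none of which passed either rule. Rap1b and Rasgrp2, which switch integrins to their active state, had 0.22 and -0.01. Among the transcription factors Gata1, Runx1 and Fli1 had log2 fold changes of -0.06, -0.07 and 0.37, and Nfe2, which drives platelet release and is also expressed in myeloid cells, had 1.59 with an adjusted p of 0.22 by edgeR's quasi-likelihood test. Cxcl9 and Cxcl13, chemokines of the CXC family to which Pf4 and Ppbp belong, fell by 1.85 and 1.60 on the log2 scale, the 2 called of 8 tested. No other TREM family gene of 5 tested passed.

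The division of the KI libraries was shared by some of these genes. A set of 6 of the 69, Gp5, Clec1b, Mpig6b, Clu, Myl9 and Alox12, was above all WT libraries in KI replicates 3 and 4 and below them in replicates 1 and 2, and Rasgrp2 had replicates 1 and 4 high. The listed genes thus gave 7 of 69, or 10.1%, beside the 1.34% of all genes, and 5 with total counts or in RPKM and 8 with upper-quartile scaling. The pattern was defined on the members, so the 2 counts are not pooled. Gp5, the remaining chain of the GPIb-IX-V complex, stood at 11.4, 11.8 and 10.1 CPM in WT and at 5.30, 5.15, 15.5 and 17.2 CPM in KI. Clec1b, encoding the podoplanin receptor CLEC-2, stood at 17.1, 19.0 and 15.0 CPM in WT and at 9.25, 9.42, 26.1 and 29.1 CPM in KI. Of the 49 genes with this same division across the whole table, 4 were the members on which it was defined and 6 were listed genes. The other 39 were not sorted by cell type, and the lists do not hold every gene of the lineage. They included the immediate-early and stress genes Jun, Egr1, Dusp2 and Ppp1r15a and the heat-shock genes Hspa1a and Hspa1b, named after their values were seen. Hspa1a stood at 1120, 1090 and 850.0 CPM in WT and at 274, 709, 1860 and 1830 CPM in KI, and its near-identical copy Hspa1b may share its reads. Their part in the platelet gene pattern was not tested.

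**Figure D4:**
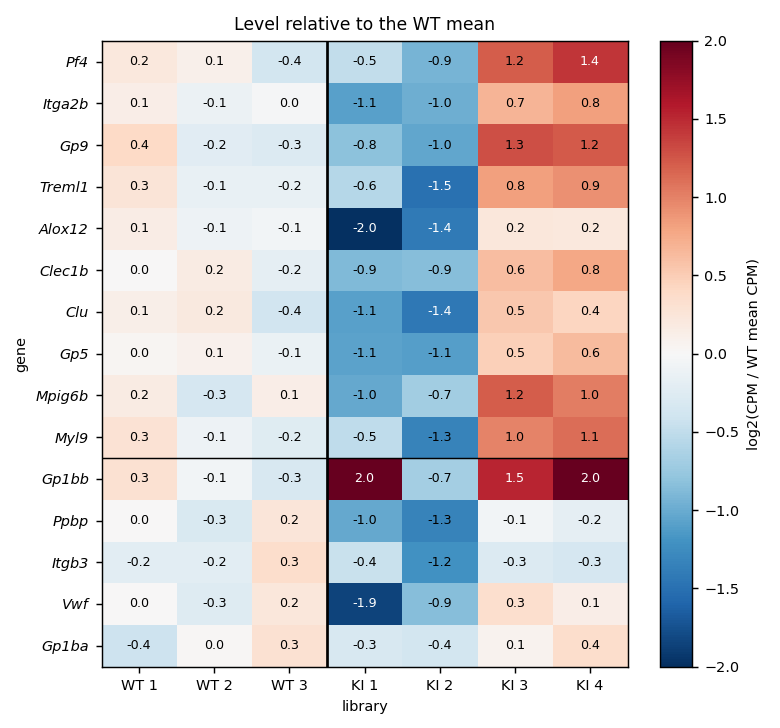
Level of each gene in each library as log2 of its CPM over the WT mean CPM, red above and blue below, with colours ending at 2 in size. The upper 10 genes have KI replicates 3 and 4 above and replicates 1 and 2 below every WT library, and the lower 5 are the remaining members.

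Likeness to the members was measured as Pearson's r over the 7 libraries with the mean of their standardised log2 levels, a description without a test since the libraries share their depth and makeup. Of 12796 genes the 10 most alike were Plxna4 (r = 0.971), Gp5, Myl9, Tpgs2, Jun, 2810408A11Rik, Metap1d, Tsc22d1, Ly6g6f and Clec1b (r = 0.939). The lists held 3 of the 10. None was called, and 9 of 10 had the division around WT, Metap1d being the exception. Both of these follow largely from picking genes by the members' profile, which has that division, so neither is a separate result. Jun, an immediate-early transcription factor of many cell types, stood at 2770, 2960 and 2420 CPM in WT and at 1770, 1670, 3640 and 3980 CPM in KI. Among the members, r with the mean of the other 8 was highest for Treml1 at 0.959 and Itga2b at 0.948 and lowest for Gp1bb at 0.316 and Itgb3 at 0.57.

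Library totals were 12918187 to 15912921 counts in WT and 16757959 to 19665679 in KI. Osbp2, the mouse gene of ORP4L, to which reads of the human transgene may map only in part, had 0, 0 and 1 counts in WT and 188, 742, 155 and 443 in KI. T-cell markers took 0.25% to 0.424% of counts in WT and 0.131%, 0.52%, 0.331% and 0.319% in KI, and none of 14 was called. Among them, Cd8a stood at 79.6 to 226 CPM over the 7 libraries and Cd4 at 93.4 to 415 CPM. Granulocyte markers took 0.186% to 0.53% in WT and 12.2%, 1.12%, 3.06% and 4.91% in KI. By the first rule 14 of 14 rose, and none passed the adjusted threshold in edgeR's quasi-likelihood test. The granulocyte share was highest in KI replicate 1, where Gp1bb and Ptgs1 were highest and Pf4, Itga2b and Gp9 were low, and all 14 markers were above 0 in every library. Erythroid markers took 1.09% to 1.88% in WT and 0.27%, 0.141%, 0.88% and 0.348% in KI, with none of 15 called. Endothelial markers took 0.0055% to 0.0152% in WT and 0.00259%, 0.00192%, 0.00819% and 0.00193% in KI, with 2 of 12 tested called lower, and 1 of the 14 listed, Sox17, was at 0 in KI replicate 4. Vwf and the endothelial share were both highest within KI in replicate 3, both were low in replicates 1 and 2, and in replicate 4 Vwf was at 35.3 CPM with an endothelial share of 0.00193%. The part of other cell types in the platelet gene levels was not tested.

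**Figure D5:**
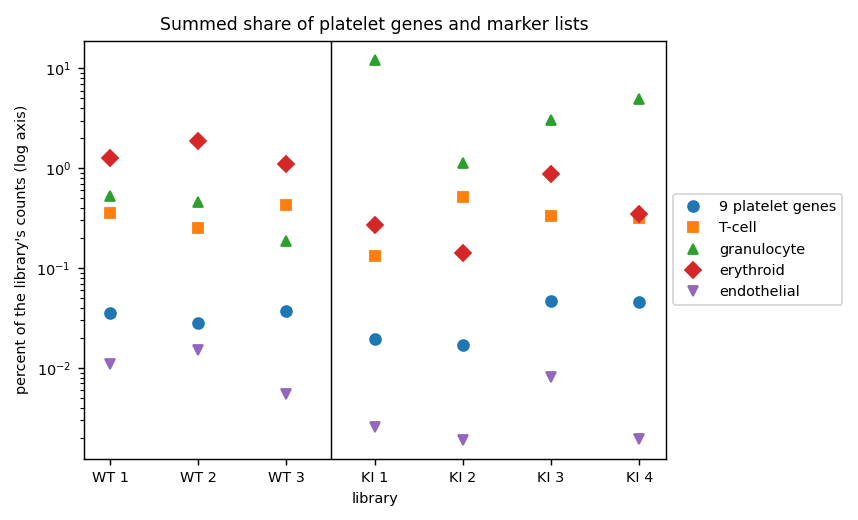
Percent of each library's counts, on a log axis, taken by the 9 platelet genes and by lists of T-cell, granulocyte, erythroid and endothelial markers. The platelet share is lowest in KI replicates 1 and 2 and highest in replicates 3 and 4, while the granulocyte share is highest in KI replicate 1.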

How the data were processed

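RNA sequencing of T-cells from 4 ORP4L KI and 3 WT mice was used, grouped by the genotype in the labels. The authors trimmed adapters, discarded reads under 17 nt, mapped the rest to mouse mRNA references with FANSe3 and deposited raw read counts per gene, not normalized. The labels name the build mm10. The authors also deposited RPKM values per gene, which were used only for levels between genes. The strand setting and the treatment of reads shared by genes are not given in the sources used here.

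Counts were tested in R 4.3.3 with edgeR 4.0.16: filterByExpr (minimum count 10, minimum total 15), TMM, and the quasi-likelihood test without covariates, adjusted by Benjamini-Hochberg over all 13462 genes tested. The standard error is the size of the log2 fold change over the square root of F. The 2 call rules were p under 0.01 together with a fold change of over 1 on the log2 scale, as drawn in the study's volcano plot, and an adjusted p under 0.05. Exact permutation tests used SciPy 1.17.1. Library totals were 12918187 to 19665679 counts, no 2 libraries of the same group agreed within sampling noise, and p-values measure the spread between these mice. The tests were tested on simulated data.

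Named genes are all 9 members, up to 5 called genes in each direction and the 2 highest RPKM genes of each lineage list, the 10 most alike genes, and marker lists as sums. Of the highest RPKM genes, those described elsewhere or not called are given without all their values. Sept5, Osbp2, Gata1, Runx1, the stress genes, and the genes sharing the pattern of Pf4 over the libraries, were chosen after their values were seen. One gene was left out of a lineage list and is not reported here. Members and lists were chosen with earlier results of these data known.

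Alternatives were DESeq2 1.42.0 size factors, upper-quartile scaling, total counts, no filter, 10 counts in every library, the Wald test of DESeq2, exact and likelihood ratio testing in edgeR, thinned counts, a replicate block without KI replicate 4, and each library left out. Mast cell, stem cell, B-cell and monocyte lists are given in the closing section.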

Additional observations from a re-analysis of the deposited data

Results flagged for a closer look

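Within the 4 ORP4L KI libraries, Cd36 in replicate 3 stood apart from the others, at 32.4 CPM against 12.8 to 14.0 CPM, a gap of 0.94 of the group's range. Over the 28 sets of KI values examined in this way, chance gives about 1.4 such cases, and 1 was found.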

How the results depend on the processing

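Changes of processing left 136 of 153 single-gene values of the members with the same direction and side of the first rule. Gp1bb passed that rule in 5 alternatives, which makes 1 member called instead of 0: without a filter (p = 0.00895 by edgeR's quasi-likelihood test), in DESeq2's Wald test (adjusted p = 0.0508), in edgeR's exact test (adjusted p = 0.0853) and likelihood ratio test (adjusted p = 0.0759), and without KI replicate 2. Over all genes the first rule called 771, 855, 852, 870 and 805 in these 5, or 4.17%, 6.35%, 6.33%, 6.46% and 6.03%, beside 630 or 4.68%. With single libraries left out, 0 to 1 members were called by each rule. The sign turned in 12 values, none of them called: with the replicate block for Pf4 (-0.09), Itga2b (-0.48), Gp9 (-0.19) and Treml1 (-0.41), with total counts for Itga2b (-0.03), and with 1 library left out in some fits for Itga2b (-0.23 to 0.36 over all 7, negative without KI replicate 3 or 4), Treml1 (-0.10 to 0.51, negative without the same libraries) and Gp1ba (-0.21 to 0.14, positive without WT replicate 3, KI replicate 1 or KI replicate 2). Scaling by total counts shifted the all-gene median log2 fold change from 0.013 to -0.129 and the split from 320 higher and 310 lower to 275 and 407.

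Over all genes, 630 calls by the first rule became 328 to 805 with 1 library left out (328 without WT replicate 2) and at most 870 in the other alternatives. Calls by adjusted p numbered 3 in edgeR's quasi-likelihood test, 44 with upper-quartile scaling, 113 with total counts, 176 without a filter, 784 in the Wald test, 682 in the exact test, 706 in the likelihood ratio test, 48 under the replicate block, and 0 to 342 with 1 library left out (342 without KI replicate 2). They numbered 0 with 10 counts in every library and with thinned counts, where 1549 and 1784 genes had an unadjusted p under 0.05. Of the other lineage genes, 7 called became 2 with the replicate block and 3 to 9 with 1 library left out, and 0 by adjusted p became 9, 6 and 6 in the Wald, exact and likelihood ratio tests and 0 to 4 with 1 library left out. The cause of these shifts was not tested. The replicate block drops KI replicate 4. Same-numbered libraries correlated from -0.608 to 0.183 over 3 pairs, and other pairs from -0.446 to 0.571 over 9. No sign of pairing by number was seen, but 3 pairs are too few to exclude it.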

Other observations

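B-cell markers took 0.0378% to 0.0648% of counts in WT and 0.0448%, 0.0221%, 0.0607% and 0.0301% in KI, with none of 8 called. Monocyte and macrophage markers took 0.112% to 0.198% in WT and 0.223%, 0.0941%, 0.144% and 0.179% in KI, with 1 of 10 called higher and 1 lower. Mast cell and basophil markers took 0.00116% to 0.00223% in WT and 0.000925% to 0.00404% in KI, with 1 of 5 tested called higher and 1 lower. Stem and progenitor markers took 0.0218% to 0.0295% in WT and 0.0146% to 0.02% in KI, with 1 of 7 tested called higher and 2 lower. None of these shares had KI replicates 3 and 4 both above and replicates 1 and 2 both below every WT library.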
